A study of Mus musculus with 8 samples.

Results

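Serpins, cystatins, membrane-anchored serine proteases of the Tmprss family and alpha-2-macroglobulin are the genes described here, in mouse embryonic choroid plexus of the fourth ventricle at stage E13. The members are all genes with a single symbol in the array annotation that begins with Serpin or Tmprss, or with Cst and a digit, plus A2m. There were 61 of them among 18193 genes measured, namely 40 serpins, 12 Tmprss genes, 8 cystatins and A2m. Each gene is represented by the probe set with the highest mean over all 8 arrays.

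Total RNA was hybridised to 8 arrays, 4 from embryos labelled Otx2 knockout and 4 from embryos labelled wildtype. Both groups had a mixed strain background, received no treatment, were of undetermined sex and came from the same litters. The knockout animals are described as an Otx2 deficient strain attributed to Puelles and colleagues, and the sources used here do not state the allele, any Cre driver or the number of embryos per array. Each array is a biological replicate per the labels, which do not say whether an array is 1 embryo or a pool. Otx2, the homeodomain factor named in the labels, read higher in the knockout-labelled arrays, at 12.44 ± 0.04 log2 units against 11.97 ± 0.09 (SD, n = 4 each; limma, adjusted p = 0.000648). Where its probes lie relative to any deleted part is not stated in the labels, so this value does not check the labels, and every direction below rests on the labels alone.

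Proteases cut other proteins irreversibly, and tissues hold them in check with dedicated inhibitors. Serpins are single-use inhibitors that trap a serine protease by changing shape once their exposed loop has been cut, although some members have lost inhibition and serve as hormone carriers, chaperones or growth factors. Cystatins block cysteine proteases such as the cathepsins. Alpha-2-macroglobulin is a large secreted cage that closes around proteases of every class and is then cleared by cell surface receptors. The Tmprss proteins work on the other side, as serine proteases held in the plasma membrane. The choroid plexus secretes cerebrospinal fluid, and cystatin C is one of the well-known proteins of that fluid.

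Of the 61 genes, 8 differed between the groups, 3 upward and 5 downward in knockout-labelled tissue (limma, Benjamini-Hochberg adjusted p under 0.05 over all 18193 genes, two-sided). Those that rose were Serping1, Serpinf1 and Serpinb6a, and those that fell were A2m, Serpinb1b, Serpinb1a, Tmprss11a and Tmprss6. The test called 19.6% of all genes, 7.84% higher and 11.7% lower, so the share of called members, 13.1% (4.92% higher and 8.20% lower), was no larger than the background of the series. At an adjusted p under 0.01 the members counted 2 higher and 5 lower (3.28% and 8.20%), against 3.3% and 7.41% of all genes. With a fold of at least 2 and an adjusted p under 0.05, they were 1 higher (Serping1) and 3 lower (A2m, Serpinb1b and Tmprss11a). These were 1.64% and 4.92% of the members, larger shares than the 0.638% and 1.16% of all genes, but of few genes. The groups did not overlap in 10 members (16.4%), 4 higher (6.56%) and 6 lower (9.84%), against 24.3% of all genes (9.98% higher and 14.4% lower). Without knockout-labelled replicate 4 the number lying lower without overlap was 10, or 16.4% of the members, against 16.3% of all genes in the same comparison. The median log2 difference, knockout-labelled minus wildtype, was -0.03 over the members and 0.00 over all genes.

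Many of these genes read near the bottom of the range. In 29 members the mean level lay under 4.33 log2 units, the lower quartile of all probe sets, and in 10 it lay above 7.29, the median of all genes. Of these 10, 5 passed the test, against 28.3% of all genes above that level. No detection calls were used, so a low level cannot be told from background, and since probes differ in brightness these positions are only a rough guide to abundance. Among the 53 members that did not pass, the log2 differences ranged from -0.31 to 0.39.

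**Figure D1:**
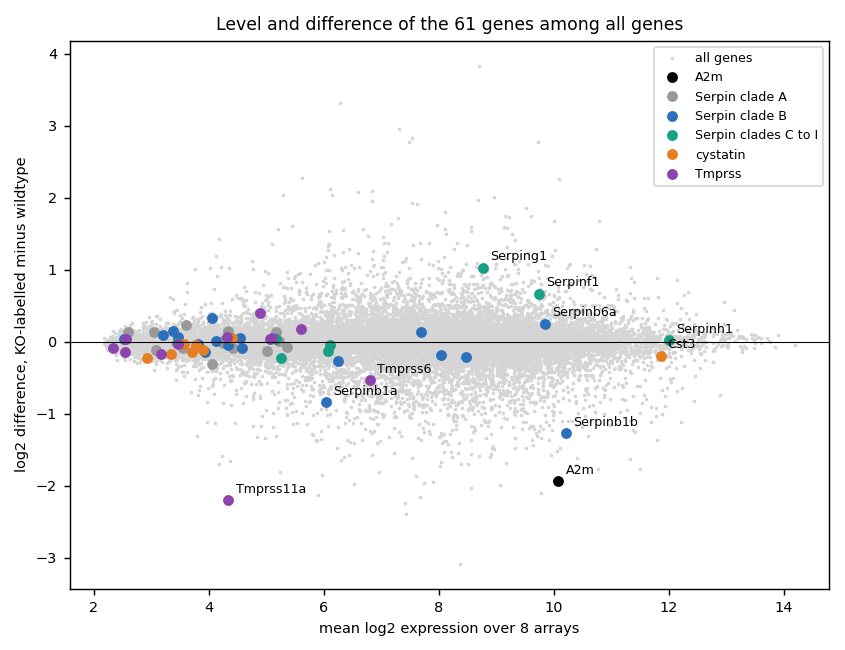
Each point is a gene, with its mean log2 expression over the 8 arrays on the horizontal axis and the log2 difference, knockout-labelled minus wildtype, on the vertical axis. Grey points are all 18193 genes and coloured points the 61 members by family, of which the 8 that passed the test are named beside Serpinh1 and Cst3. A2m and Serpinb1b lie far below 0 at high levels, while Tmprss11a lies below 0 at a low level.

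Start-site windows in the RefSeq table (build GRCm38.p6, from 250 bases before to 50 bases after a start) matched 48 members with 56 windows. The windows of the 4 called genes that the table holds are printed 5′ to 3′ on the gene's strand, because the results turn on these genes. Serpinb1b and Serpinb6a moved in opposite directions within a gene cluster, and Serpinf1 rose. Tmprss11a was the only called gene of its cluster, whose other measured members read under the lower quartile. Capitals mark matches to the motifs searched on both strands, which were TAATCC, the core bound by Otx-type homeodomains, TATAAA, the TATA box, and TTCNNNGAA, a palindrome bound by STAT factors. The motifs were chosen after the expression values were seen, the palindrome is the same on both strands, and no match in the printed windows overlapped another. A match is only a description of the letters.
Serpinb1b (chr13:33083853-33084152, plus strand, lower in the knockout-labelled arrays): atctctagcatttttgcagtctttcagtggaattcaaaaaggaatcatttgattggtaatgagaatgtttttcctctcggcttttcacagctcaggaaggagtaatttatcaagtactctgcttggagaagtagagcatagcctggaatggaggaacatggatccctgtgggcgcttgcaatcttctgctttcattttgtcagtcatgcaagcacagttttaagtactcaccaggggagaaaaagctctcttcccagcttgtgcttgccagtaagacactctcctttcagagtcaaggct
Tmprss11a (chr5:86468941-86469240, minus strand, lower): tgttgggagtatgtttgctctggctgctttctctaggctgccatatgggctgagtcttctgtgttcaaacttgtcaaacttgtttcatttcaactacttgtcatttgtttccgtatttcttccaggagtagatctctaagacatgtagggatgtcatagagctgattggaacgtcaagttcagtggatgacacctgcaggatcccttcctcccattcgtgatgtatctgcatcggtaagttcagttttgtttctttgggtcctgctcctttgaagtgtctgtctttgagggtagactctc
Serpinf1 (chr11:75422574-75422873, minus strand, higher): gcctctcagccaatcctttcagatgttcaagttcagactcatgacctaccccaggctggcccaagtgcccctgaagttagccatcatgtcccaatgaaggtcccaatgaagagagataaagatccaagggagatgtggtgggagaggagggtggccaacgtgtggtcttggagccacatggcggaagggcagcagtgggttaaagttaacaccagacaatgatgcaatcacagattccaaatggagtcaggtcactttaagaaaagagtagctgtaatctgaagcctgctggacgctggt
Serpinb6a (chr13:34002745-34003044, minus strand, slightly higher): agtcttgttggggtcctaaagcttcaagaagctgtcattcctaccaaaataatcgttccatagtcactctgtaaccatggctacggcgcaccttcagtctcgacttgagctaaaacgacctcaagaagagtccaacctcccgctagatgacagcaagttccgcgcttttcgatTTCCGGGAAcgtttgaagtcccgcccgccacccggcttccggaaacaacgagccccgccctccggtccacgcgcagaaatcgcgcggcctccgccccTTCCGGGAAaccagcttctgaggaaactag

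Of these windows only that of Serpinb6a held a match, with TTCNNNGAA beginning at bases 174 and 271 of the window. Its second listed window held none. TAATCC was found in 2 of the 56 member windows (3.57%), those of Serpina1f and Tmprss11f, against 7.06% of all 32851 windows. TTCNNNGAA was in 8 (14.3%, against 8.30% of all) and TATAAA in 12 (21.4%, against 13.6%). Neither Serpina1f nor Tmprss11f passed the expression test.

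The protease trap gene A2m fell most among the inhibitors. It read 8.48, 9.08, 9.44 and 9.44 log2 units in knockout-labelled replicates 1 to 4 and 10.92, 11.16, 11.16 and 10.93 in wildtype replicates 1 to 4. Every knockout-labelled array was more than 1 log2 unit below every wildtype array, and knockout-labelled replicate 1 was the lowest of all. The means were 9.11 ± 0.45 and 11.04 ± 0.13 (SD, n = 4 each), a 3.82-fold difference with a log2 value of -1.93, an SE of 0.19 and an adjusted p of 0.000140 (limma). Leaving out each array in turn kept the call.

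Of the 18 cytosolic serpins of clade B, 2 fell, 1 rose and 15 did not pass. Among all genes 11.7% fell and 7.84% rose. Serpinb1b, a mouse gene closely related to the neutrophil elastase inhibitor gene Serpinb1a, read 9.18, 9.81, 9.69 and 9.61 in the knockout-labelled arrays and 10.72, 10.76, 10.98 and 10.93 in the wildtype arrays. The groups were well apart, and again knockout-labelled replicate 1 was lowest. The log2 difference was -1.27 (SE 0.13, limma adjusted p = 0.000156), or 2.42-fold. Serpinb1a, whose product inhibits elastase, cathepsin G and proteinase 3, read 5.70, 5.16, 5.75 and 5.84 against 6.20, 6.32, 6.65 and 6.64, also without overlap. Its log2 difference was -0.84 (SE 0.16, adjusted p = 0.00539). A second, dim probe set of Serpinb1a, of the kind whose probes match several transcripts, gave -0.18 (adjusted p = 0.201 over all probe sets). The probe sequences were not used here, and since Serpinb1a and Serpinb1b are close copies, signal from one on the probes of the other was not tested.

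Serpinb6a, a cathepsin G inhibitor of the same clade, moved the other way by a small amount. It read 10.01, 9.81, 10.11 and 9.92 in the knockout-labelled arrays against 9.72, 9.67, 9.72 and 9.74 in the wildtype arrays. The groups did not overlap, but the gap between the closest arrays was under 0.1. The log2 difference was 0.25 (SE 0.07, limma adjusted p = 0.0370), and the call was lost without knockout-labelled replicate 1, 3 or 4 and without any one of wildtype replicates 1, 2, 3 and 4 (adjusted p from 0.0620 to 0.101). Of the fits that left out an array, it held only without knockout-labelled replicate 2 (0.0110). With arrays centred on their medians the adjusted p was 0.0634.

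These 3 genes belong to a single gene cluster. In the reference annotation, 11 measured Serpinb members, from Serpinb1a to Serpinb6a, follow each other on the same chromosome. Of these 11, 2 fell and 1 rose, against 11.7% and 7.84% of all genes. Serpinb1a and Serpinb6a lie at opposite ends of the cluster, with Serpinb6b, Serpinb9 and Serpinb9b between Serpinb1a and Serpinb1b. The log2 differences of those 3 were -0.21, -0.19 and -0.27, and none passed (limma adjusted p = 0.487, 0.462 and 0.0659). The Serpinb6b value was -0.06 without knockout-labelled replicate 1 and -0.36 without knockout-labelled replicate 3. Serpinb9b lay just outside the threshold, at 6.11 ± 0.09 against 6.38 ± 0.16, with a knockout-labelled array above the lowest wildtype array. It passed after a second quantile normalization (0.0462) and with arrays centred on their medians (0.0467). Serpinb9d, further along, read 4.22 ± 0.23 against 3.89 ± 0.18 (adjusted p = 0.109), at a level under the lower quartile.

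Serpinf1, described further on, and Serpinf2 are also neighbours. The other Serpinb cluster, 7 measured genes from Serpinb5 to Serpinb8, had 0 called genes, levels of 3.20 to 4.58 and log2 differences of -0.14 to 0.14. The Serpina cluster, 13 measured genes from Serpina10 to Serpina3n, also had 0 called genes, with levels of 3.05 to 5.37. Over all 14 clade A genes, which include antitrypsin-like inhibitors and the carriers of corticosteroids (Serpina6) and thyroid hormone (Serpina7), limma called 0, and 0 had an unadjusted p under 0.05. The share called over all genes was 19.6%. However, 0 of the 14 lay above 7.29, the median of all genes, and 8 lay under the lower quartile. The wide intervals were those of Serpina1b (95% interval of the log2 difference -1.22 to 1.52), Serpina1c (-1.03 to 0.40) and Serpina6 (-0.52 to 0.99).

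Array by array, those last 3 genes, chosen after their values were seen, shared a pattern that did not follow the groups. Serpina1b ranged from 3.46 to 5.38 in the knockout-labelled arrays and from 3.21 to 5.98 in the wildtype arrays, Serpina1c from 3.15 to 4.67 and from 3.72 to 4.76, and Serpina6 from 3.15 to 4.29 and from 2.95 to 4.44. In each, replicate 2 was the highest of its group. The mean of 13 plasma protein genes of liver and yolk sac (no serpin among them, but with Ttr, which the choroid plexus makes) was likewise highest in replicate 2 of each group, at 6.25 and 6.60, against 5.48 to 6.16 in the other arrays. Whether RNA of such cells accounts for these readings was not tested. The Serpina1b probe set is of the kind whose probes match several transcripts, and signal shared with Serpina1c was not tested.

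**Figure D2:**
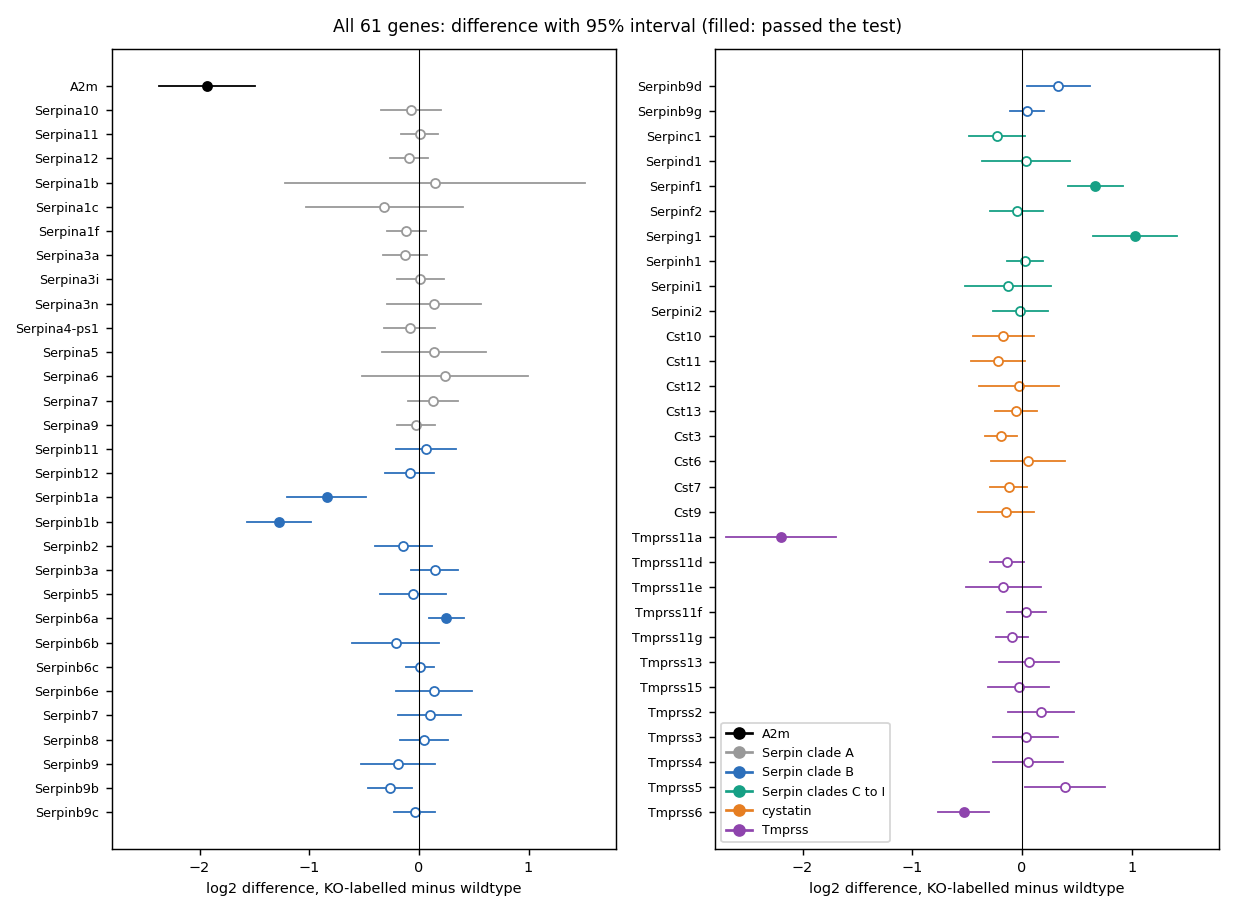
Points are the log2 difference of each of the 61 members, knockout-labelled minus wildtype, and lines its 95% interval from limma. Members are ordered by subgroup, and filled points passed the test at an adjusted p under 0.05. Clade A serpins and cystatins hold open points only, and the filled points of Serpinb1a, Serpinb1b, Tmprss11a, A2m and Tmprss6 lie left of 0.

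Secreted serpins of the other clades held the largest rise. Serping1, the C1 inhibitor that restrains complement and the contact system, read 9.05, 8.87, 9.76 and 9.47 in the knockout-labelled arrays against 8.22, 8.32, 8.18 and 8.30 in the wildtype arrays. All knockout-labelled arrays were above all wildtype arrays, with a wide spread among the former. The means were 9.29 ± 0.40 and 8.26 ± 0.07, a 2.04-fold difference (log2 1.03, SE 0.17, limma adjusted p = 0.00235).

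Serpinf1 encodes pigment epithelium-derived factor, a secreted protein without protease inhibition that is known to restrain vessel growth. It read 10.16, 9.84, 10.34 and 9.96 against 9.27, 9.54, 9.38 and 9.44, and the groups did not overlap. The log2 difference was 0.67 (SE 0.11, limma adjusted p = 0.00241), or 1.59-fold. A second probe set gave 0.30 and did not pass (adjusted p = 0.0669 over all probe sets).

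Serpinh1, the collagen chaperone HSP47 of the endoplasmic reticulum, read 12.02 ± 0.13 against 11.99 ± 0.03. Its log2 difference was 0.03 with a 95% interval of -0.14 to 0.19 (adjusted p = 0.860). A second probe set read 11.89 ± 0.23 against 11.55 ± 0.17, a log2 difference of 0.34 that did not pass either (adjusted p = 0.0945 over all probe sets). The clotting and fibrinolysis inhibitor genes Serpinc1 (antithrombin), Serpind1 (heparin cofactor II) and Serpinf2 (alpha-2-antiplasmin) had log2 differences of -0.23, 0.03 and -0.05. For Serpini1, neuroserpin, which inhibits tissue plasminogen activator, the value was -0.12. None of these 4 passed.

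**Figure D3:**
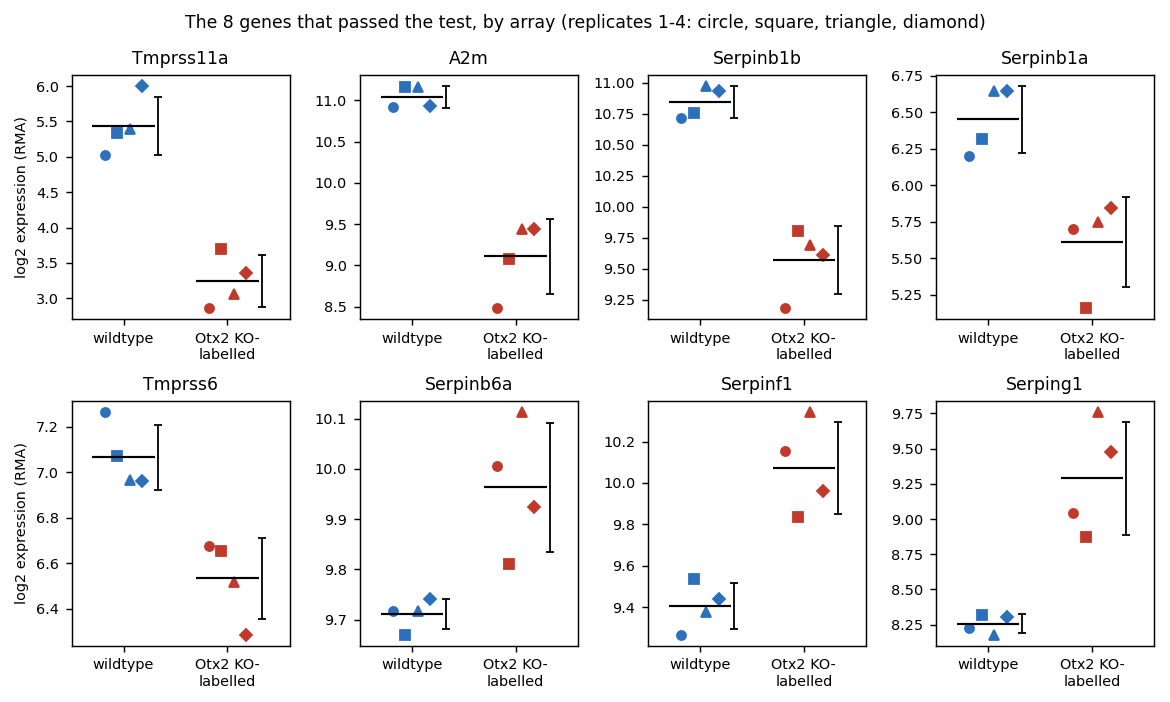
Log2 expression of the 8 members that passed the test, by array, with wildtype arrays in blue and knockout-labelled arrays in red. Symbols stand for replicate numbers, horizontal bars for group means and error bars for the SD over 4 arrays. No panel shows overlap of the groups, and the narrowest gap is that of Serpinb6a.

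Of the 8 cystatins limma called 0, against 19.6% of all genes, and 1 had an unadjusted p under 0.05. That gene was Cst3, cystatin C, a secreted cathepsin inhibitor. It read 11.66, 11.77, 11.88 and 11.72 in the knockout-labelled arrays against 11.97, 11.94, 11.89 and 12.01 in the wildtype arrays. Every knockout-labelled array was lower, although knockout-labelled replicate 3 and wildtype replicate 3 nearly met. The log2 difference was -0.19, with a 95% interval of -0.34 to -0.05 and an adjusted p of 0.0692. Without knockout-labelled replicate 3 the adjusted p was 0.0400, with arrays centred on their medians it was 0.0480, with a trended robust variance prior 0.0170, and among genes above the median level 0.0285. Cst6, cystatin E/M, read 4.43 ± 0.27 against 4.38 ± 0.23, and 6 of the 8 cystatins lay below that quartile of 4.33.

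Among the membrane serine proteases 2 of 12 fell and 0 rose, against 11.7% and 7.84% of all genes. At an unadjusted p under 0.05, 1 was higher. Tmprss11a, of a family expressed in surface epithelia, read 2.86, 3.70, 3.06 and 3.35 in the knockout-labelled arrays against 5.02, 5.34, 5.39 and 6.01 in the wildtype arrays. The groups were more than 1 log2 unit apart. The log2 difference was -2.20 (SE 0.22, limma adjusted p = 0.000157), and the knockout-labelled level lay under the lower quartile. Its 4 measured neighbours in the Tmprss11 cluster had log2 differences of -0.17 to 0.04 at levels of 2.33 to 3.17, and none passed. These levels lay under the lower quartile, so they set no bound on a change.

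Tmprss6, matriptase-2, which in the liver cuts the BMP co-receptor hemojuvelin and so lowers hepcidin, read 6.68, 6.65, 6.52 and 6.29 against 7.27, 7.07, 6.97 and 6.96. There was no overlap, and the log2 difference was -0.53 (SE 0.10, limma adjusted p = 0.00590). Bmp6, a ligand that drives hepcidin, was lower by a log2 difference of -0.55 (adjusted p = 0.0262). In the list of 22 partner genes that holds Bmp6, 2 fell and 4 rose. Whether the Tmprss6 and Bmp6 differences are linked was not tested. Tmprss5 (spinesin) read 5.08 ± 0.39 against 4.69 ± 0.03. Its groups did not overlap, but it did not pass (log2 difference 0.39, adjusted p = 0.130), and without knockout-labelled replicate 3 the difference was 0.22. Tmprss2, known for activating virus surface proteins, read 5.69 ± 0.23 against 5.52 ± 0.21, and Tmprss4 read 5.13 ± 0.31 against 5.07 ± 0.11, with overlapping groups.

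Genes of the proteases and receptors that these inhibitors act with were counted in 6 lists, to be read against the 19.6% of all genes called (7.84% higher and 11.7% lower). Of 31 clotting, fibrinolysis and complement genes 6 rose and 0 fell (19.4% called, 1 lower at an unadjusted p under 0.05), with a median log2 difference of 0.07. Plat, tissue plasminogen activator, rose by 0.92 (limma adjusted p = 0.00108), or by 0.56 with the mean of its probe sets, Tfpi, the inhibitor of the tissue factor pathway, by 0.70 (0.000560), and F13a1, the fibrin cross-linking transglutaminase, by 1.02 (0.000221). F13a1 is also one of the macrophage markers counted further on. With the replicate number as a block 5 rose and 1 fell. Of 15 cysteine protease and stefin genes 3 rose and 1 fell (26.7% called), with a median of -0.09. Ctss, cathepsin S of phagocytes, rose by 0.62 (adjusted p = 0.00245) and the calpain gene Capn2 by 0.39 (0.00336), while Ctsc, cathepsin C, which activates granule proteases, changed by -0.57 (0.00206). Of these genes 3 fell when knockout-labelled replicate 3 was left out, 2 when wildtype replicate 1 was, and 2 with the replicate block.

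Of 14 granule protease genes 0 rose and 1 fell (7.14% called, and 0 higher at an unadjusted p under 0.05), with a median of -0.04. The gene was Prtn3, proteinase 3, a target of Serpinb1a, with a log2 difference of -0.76 (limma adjusted p = 0.00170). Without wildtype replicate 3, 2 fell. Of 22 partners of membrane serine proteases 4 rose and 2 fell (27.3% called), with a median of 0.06. Spint2, a membrane inhibitor of such proteases, changed by -0.57 (adjusted p = 0.00151), and Met, the receptor for hepatocyte growth factor, rose by 1.00 (0.0119), or by 0.44 with the mean of its probe sets. Prss23, a secreted serine protease, rose by 0.52 (0.0119), but its unshared probe sets gave 0.13 (0.476). Leaving out wildtype replicate 4 gave 2 that rose, and 1 fell without knockout-labelled replicate 1 or without wildtype replicate 2, 3 or 4.

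Of 10 macroglobulins and clearance receptors 0 rose and 2 fell (with 2 higher at an unadjusted p under 0.05), with a median of 0.00, a called share close to that of all genes. Vldlr, a receptor of lipoproteins and serpin complexes, changed by -1.19 (limma adjusted p = 1.84e-05) and the receptor chaperone Lrpap1 by -0.40 (0.0140). Lrp1, the main clearance receptor of alpha-2-macroglobulin, had a log2 difference of 0.15 (0.417). Without knockout-labelled replicate 2, 2 genes rose, and with the replicate block 1 rose and 3 fell. Of 14 genes around collagen folding and the angiotensin system 6 rose and 1 fell (7 of 14 called), with a median of 0.14. Col1a2 rose by 0.55 (adjusted p = 0.000691), the collagen lysyl hydroxylase Plod2 by 0.53 (0.00111) and Col1a1 by 0.72 (0.0220). Both collagen genes are also stroma markers. The Col1a1 call was lost without knockout-labelled replicate 3 and without wildtype replicate 1 or 4 (adjusted p of 0.0524, 0.0553 and 0.0667). Leaving out knockout-labelled replicate 1 left 3 genes that rose, leaving out knockout-labelled replicate 3 left 2, and so did leaving out either wildtype replicate 1 or 4. With the replicate block 3 rose. The gene that fell was Ace, which makes angiotensin II (log2 difference -0.30), and its call was lost without knockout-labelled replicates 3 or 4 or wildtype replicates 1, 2 or 3.

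Markers of the cell types in the tissue differed between the groups as well. Of 19 choroid plexus epithelium genes 16 fell and 1, Otx2, rose, and the list mean ranged from 10.11 to 10.36 log2 units in the knockout-labelled arrays against 11.07 to 11.20 in the wildtype arrays. Of 15 stroma genes 12 rose and 0 fell (limma, 0 lower at an unadjusted p under 0.05), with list means of 10.78 to 11.15 against 10.33 to 10.45. Without knockout-labelled replicate 3, 1 stroma gene fell. Of 15 macrophage genes 11 rose and 0 fell (0 lower at an unadjusted p under 0.05), with list means of 8.94 to 9.42 against 8.40 to 8.63. No marker of these 3 lists had a mean level under the lower quartile, and Ttr, the defining secreted protein of the choroid plexus, read 14.17 ± 0.03 against 14.21 ± 0.04. Its mean of 14.19 was the highest level of the epithelium list. Whether probes this bright still register a change was not tested.

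A2m, Serpinb1b, Tmprss11a, Tmprss6 and Serpinb1a were low in the arrays where the epithelium mean was low, and Serping1, Serpinf1 and Serpinb6a were high in those where the stroma and macrophage means were high. All of these genes had passed the test without overlap of the groups, and these list means did not overlap either. The match over all arrays therefore follows from the group difference and is no separate evidence. Within the knockout-labelled group the fallen genes did not share an order of arrays. In replicate 1, which had the lowest epithelium mean (10.11), A2m, Serpinb1b and Tmprss11a were lowest, Tmprss6 was highest (6.68), and Serpinb1a (5.70) lay above its lowest value, 5.16 in replicate 2. Serping1 (8.87), Serpinf1 (9.84), Serpinb6a (9.81) and the stroma (10.78) and macrophage (8.94) means were all lowest in replicate 2. The genes that rose and the macrophage mean were highest in replicate 3, but the stroma mean was highest in replicate 1. In these bulk samples fewer cells of a type and less RNA per cell cannot be told apart, and the part of cell makeup in these differences was not tested.

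**Figure D4:**
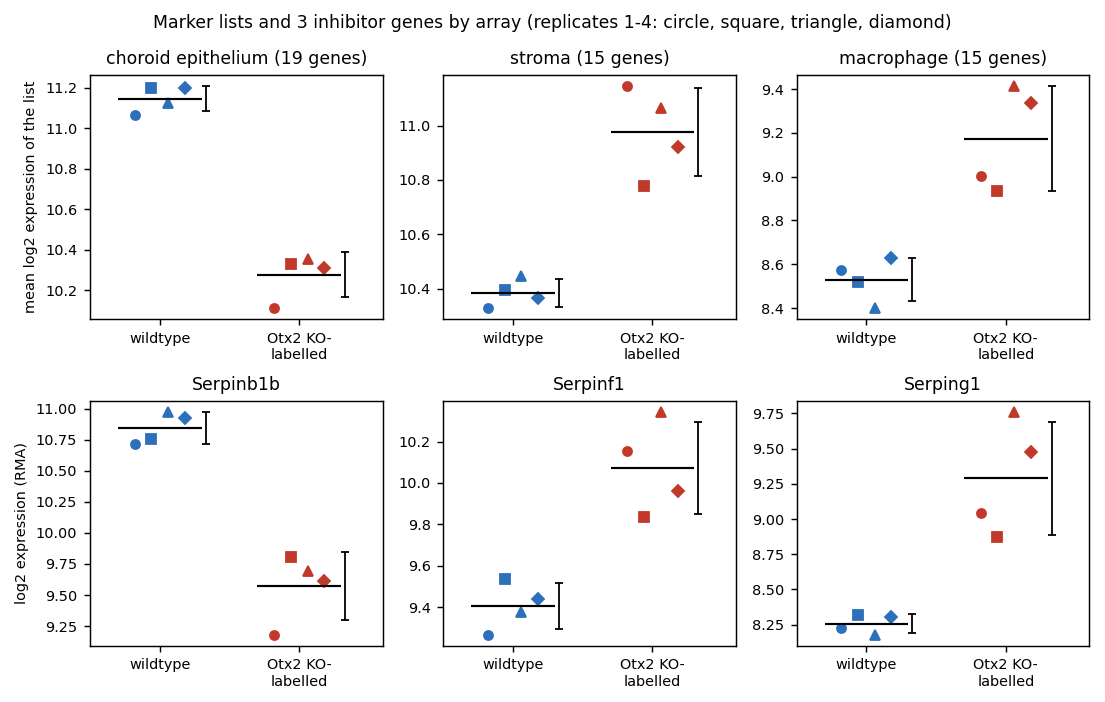
The upper panels give the mean log2 expression of 3 marker lists in each array and the lower panels the log2 expression of 3 serpins, with wildtype in blue and knockout-labelled in red. Symbols stand for replicate numbers, bars for group means and error bars for the SD over 4 arrays. The epithelium mean and Serpinb1b are low, and the stroma and macrophage means, Serpinf1 and Serping1 high, in all 4 knockout-labelled arrays.

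The array means of other marker lists overlapped between the groups. List means of the knockout-labelled and wildtype arrays were 8.88 to 9.08 and 9.02 to 9.23 for vascular endothelium, 9.11 to 9.46 and 9.39 to 9.52 for erythroid cells, and 7.69 to 9.17 and 7.36 to 8.93 for neurons. They were 7.60 to 7.82 and 7.23 to 7.94 for surface epithelium and 6.91 to 7.20 and 6.95 to 7.39 for platelets and mast cells. The neuron list varied by over 1 log2 unit within each group. Single markers of these lists still differed. Of 11 endothelium genes 3 fell, Plvap (log2 difference -0.51), Emcn (-0.39) and Pecam1 (-0.27), and 1 rose, Cdh5 (0.33), whose call was lost on leaving out any array other than knockout-labelled replicate 2. Of 12 surface epithelium genes Krt18 (-0.60) and Dsp (-0.56) fell, but the median log2 difference of the list was 0.30. At an unadjusted limma p under 0.05, 2 were lower and 4 higher. Those higher were Krt14 (1.25), Krt5 (0.89), Trp63 (0.88) and Grhl2 (0.38), which did not pass. In this list 3 rose without knockout-labelled replicate 3 or wildtype replicate 4, and 1 without knockout-labelled replicate 4. Alas2 fell among 8 erythroid genes (-0.48), where 2 fell without wildtype replicate 1. Itga2b fell among 10 platelet and mast cell genes (-0.35), where the number that fell was 0 without knockout-labelled replicate 1 or wildtype replicate 4. Of 11 neuron genes limma called 0, with 1 higher at an unadjusted p under 0.05, and it called 1 without wildtype replicate 1.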

How the data were processed

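The deposited table holds log2 expression for each probe set. The authors used RMA, as the submitters' processing notes name it, without a stated version or software. RMA equalises array distributions, so a change in total RNA is not visible. Array medians were 5.8857 to 5.8985 in the knockout-labelled arrays and 5.8541 to 5.8763 in the wildtype arrays, without overlap. Centring the arrays on these medians removed the call of Serpinb6a and added calls of Cst3 and Serpinb9b. No sequencing depth applies, so the number of arrays limits precision. Of 45101 probe sets, 34945 had 1 gene in the platform annotation, 932 several and 9160 none listed, beside 64 controls. A total of 34741 had their identifier in the reference gene table (GRCm38.p6), and 0 symbols differed. The array's build is not given, so coordinates are given only for RefSeq start-site windows.

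Groups were compared with limma 3.58.1 (R 4.3.3), by two-sided moderated tests from lmFit and eBayes with genotype alone and no filter, adjusted over 18193 genes. Adjusted p-values come from this test unless another fit, or adjustment over all probe sets, is named beside them, and differences are knockout-labelled minus wildtype. It was tested on simulated data holding 200 changed genes among 18193, where it recovered 60.0% of changes of 0.5 log2 units and 92.0% of changes of 1, with 10 calls among unchanged genes. The real data had 19.6% of genes called, and the simulated noise was independent between genes. These rates therefore do not give the sensitivity of the test in the real data.

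The members and all gene lists were chosen with earlier results of these data known. Named by rule were all called members, the 2 uncalled members with the highest level in each family, the 4 uncalled members with the smallest p, up to 3 called genes of each partner list (the one with the smallest p where none passed), and Otx2. Others were named after their values were seen, to complete a cluster or a role.

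Same-numbered arrays deviated together from their group means (correlations across genes of 0.131, 0.232, 0.160 and 0.223, each over the limit of 0.1). The replicate number was therefore used as a block in an alternative fit. The main test, with genotype alone, did not pair the arrays. Such a pairing rests on the values, not on a label, and 2 differently numbered pairs also passed the limit (0.294 and 0.171, the former the highest of all pairs). Alternatives were the replicate block, leaving out each array, a trended robust variance prior, array weights, 3 other choices of probe sets, a level filter, 2 normalizations and 2 thresholds.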

Additional observations from a re-analysis of the deposited data

Results flagged for a closer look

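In 3 of the 66 groups of 4 arrays checked, all among genes of the partner lists, the gap of 1 array to its nearest neighbour took up most of the group's range (Dixon's test at 95%). Chance gives about 1 in 20 groups. Ctsc read 10.82 in wildtype replicate 4 against 10.56 in the nearest other wildtype array. Ctss read 10.07 in knockout-labelled replicate 1, where the nearest other array of the group read 10.48. Spint2 read 11.43 in wildtype replicate 1, below the nearest value of 11.56. No array of the named serpins, cystatins, Tmprss genes or A2m stood apart in this way.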

How the results depend on the processing

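Of the 8 called members, 7 kept their call and direction in every alternative fit that measured them, all but Serpinb6a. Leaving out each array gave 2 to 3 members higher and 5 to 6 lower, with a median log2 difference of -0.09 to 0.00 (0.0043 at most). With the replicate block the counts were 3 higher and 5 lower and the median -0.03, and the block changed no call of a named member. At least 2-fold differences were reached by 1 member higher and 3 lower. In the fit of genes above the median level 3 of the 10 members were lower, including Cst3, which the main test did not call. Serpinb1a, Tmprss11a and Tmprss6 lay below that level and were not in that fit. Members that did not pass and lay near 0 changed sign, Serpinh1 with arrays centred on their medians (-0.0013) and Cst6 with array weights (-0.0589). Without 1 array the ranges were -0.0293 to 0.0695 for Serpinh1, -0.0933 to 0.1494 for Tmprss4 and -0.0338 to 0.1658 for Cst6. In these the cause was not tested. No detection calls were used, so dim members set no bound on a change.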
